A study of Mus musculus with 9 samples.

Results

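The genes described here are 34 transcripts for protein folding in the endoplasmic reticulum (ER) and for the unfolded protein response. They are the rows of the deposited expression table whose gene symbol is on a list of lumenal chaperones, disulfide isomerases, ER-associated degradation factors, and sensors and effectors of the unfolded protein response. All 34 were among the 14905 genes of the table. The libraries came from F480+CD11b+ cells, labelled macrophages, which were sorted by flow cytometry from the visceral adipose tissue of C57BL/6 mice. One group of 5 libraries was from Nucb2-/- mice (here KO) and the other, of 4 libraries, from wild type mice (WT). Nucb2 encodes nucleobindin 2, a calcium-binding protein and the precursor of the secreted peptide nesfatin, and the comparison asks how its loss relates to transcript levels in these cells. The labels do not give the age or sex of the mice or the part of Nucb2 that was deleted, and no diet is stated in them, though the name of the deposited table, which covers both groups, carries the letters HFD, a usual short form of high-fat diet. They also do not say that each library was a separate animal, so the p-values rest on the spread among libraries, which may be technical.

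Proteins that enter the secretory pathway fold in the ER with the help of chaperones such as BiP (Hspa5), and those that do not fold are sent back to the cytosol for degradation. When unfolded proteins accumulate, the membrane sensors IRE1, ATF6 and PERK start the unfolded protein response: IRE1 splices the Xbp1 transcript, ATF6 is cut in the Golgi to release a transcription factor, and PERK phosphorylates eIF2alpha, which lowers general translation while that of ATF4 goes up. XBP1 and ATF6 act on chaperone and degradation genes, and ATF4 on genes of amino acid supply and redox balance. Macrophages are secretory and phagocytic cells, and the same pathways are known to shape their cytokine production and survival. ATF4 and its targets also respond to amino acid shortage and other stresses through other eIF2alpha kinases, so these transcripts are not specific to the ER.

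The 2 arms of the response read different promoter letters, and these are shown because the members that hold each are set side by side below. RefSeq promoters (build GRCm38.p6, 250 bases before to 50 after each annotated start) matched 30 of the 34 members. The ER stress response element of XBP1 and ATF6 was searched on both strands as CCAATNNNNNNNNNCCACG; it was present in 8 of the 30 members (26.7%) and in 39 of all 32851 promoters (0.119%). Each stretch below is written 5′ to 3′ in the direction of its gene, and capitals mark the match.
Hspa5, chr2:34772020-34772048, + strand: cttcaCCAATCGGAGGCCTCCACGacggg
Hsp90b1, chr10:86705633-86705661, - strand: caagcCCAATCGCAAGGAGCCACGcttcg
Hsp90b1, chr10:86705528-86705556, - strand: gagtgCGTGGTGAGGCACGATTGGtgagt
Calr, chr8:84847070-84847098, - strand: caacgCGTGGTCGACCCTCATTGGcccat
Canx, chr11:50325795-50325823, - strand: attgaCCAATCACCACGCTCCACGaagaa
Pdia6, chr12:17266486-17266514, + strand: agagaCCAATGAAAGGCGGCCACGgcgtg
The other 3 members with a match were Creld2, Dnajc3 and Syvn1. The matches shown for Calr and for the nearer site of Hsp90b1 read on the opposite strand of the gene. The Hspa5 stretch ended upstream of the RefSeq start but lay inside the longer Hspa5 gene of the GENCODE M21 annotation.

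The related element ATTGGNCCACG was found in 12 of all promoters (0.0365%), and 2 of these belonged to members, Herpud1 and Dnajb11. The C/EBP-ATF element bound by ATF4, searched as TGATGNAA, was found in 4 members (13.3%), namely Asns, Chac1, Trib3 and Herpud1, against 3.97% of all promoters. The XBP1 element TGACGTGG was in 0.676% of promoters and in 0 of the 30 members. No motif match overlaps another in the stretches printed, and a match describes the sequence and not a bound site.
Herpud1 (ATTGGNCCACG), chr8:94386368-94386396, + strand: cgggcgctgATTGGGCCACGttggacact
Herpud1 (TGATGNAA), chr8:94386306-94386335, + strand: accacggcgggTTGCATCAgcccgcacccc
Asns (TGATGNAA), chr6:7693214-7693243, - strand: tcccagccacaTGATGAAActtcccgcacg
Chac1 (TGATGNAA), chr2:119351038-119351067, + strand: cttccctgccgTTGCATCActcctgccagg
The TGATGNAA matches of Herpud1 and Chac1 read on the opposite strand, and the Asns stretch, like that of Hspa5, lay inside the longer GENCODE gene. The matches of Trib3 and Dnajb11 lay after the start and are not printed. The 8 members with the ER stress response element had log2 differences between KO and WT from -0.07 to 0.12. The 4 members with the C/EBP-ATF element spanned -0.02 (Herpud1) to 1.69 (Chac1), with Asns at 1.20 and Trib3 at 0.84; Chac1 and Trib3 were near the floor, and the value of Trib3 changed sign between depth classes. Atf4, Ppp1r15a, Dnajb9 and Os9, which like Asns had an unadjusted p under 0.05 in limma, held none of the searched elements. No test of the difference between members with the 1 and with the other element was made.

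Depth was worked out from the steps between the lowest values, since 1 read is worth a fixed step in each library. By that measure 6 libraries (KO replicates 1 to 4 and WT replicates 1 and 2) held 74937713 to 85200100 reads over the listed genes, and 3 (KO replicate 5, WT replicates 3 and 4) held 51148956 to 55004978; values are printed within these depth classes where they bear on a result, and those of the shallower class set 1 KO library against 2 WT libraries with no test. The targeted gene followed the labels, with Nucb2 at 1499.7 ± 218.9 normalized counts (SD, n = 5) in KO and 4313.4 ± 790.5 (SD, n = 4) in WT. All 10 macrophage markers checked, among them Adgre1 (F4/80), Itgam (CD11b) and Cd68, were above the floor of the table in all 9 libraries. Their summed value, most of it Lyz2, was 1343183.7 to 1540756.6 in KO and 1352798.1 to 1519862.7 in WT, but the markers were not even: 1 was higher and 3 were lower in KO at an unadjusted p under 0.05, and Fcgr1 and C1qa, each with a log2 difference of -0.50, had the KO range below WT (0 passed the adjusted threshold). The sort also carried transcripts of other cells: summed plasma cell markers, the secretory cells that hold the most ER, overlapped between groups (5020.2 to 14322.9 in KO, 5431.5 to 11500.2 in WT), and 2 of the 7, Mzb1 and Pou2af1, were at the floor in 1 library each. The summed levels of the 9 mast cell markers did not overlap (1879.0 to 3634.0 in KO, 6267.5 to 11096.2 in WT; Fcer1a at the floor in all 5 KO libraries, Ms4a2 in 4 KO and 3 WT), nor did those of the 9 endothelial markers (4468.8 to 8398.7 in KO, 1946.5 to 4120.6 in WT; none at the floor). Of the mast cell markers, 4 passed the adjusted threshold, all lower in KO (Cpa3, Tpsb2, Cma1 and Fcer1a), and 0 endothelial markers did. The 6 dendritic cell markers were also apart in their sum (10692.8 to 13426.7 in KO, 6716.6 to 10307.0 in WT). The largest part of that sum was Cd209a, and 1 marker was at the floor in some library. Of the 6, only Cd209a passed the adjusted threshold, higher in KO. Differences were above 0 for 4 and below 0 for 2, and Clec9a (log2 -3.49) had the KO range below WT. The 7 mesothelial markers overlapped in their sum (5411.8 to 17763.4 in KO, 1967.6 to 7242.2 in WT; none at the floor), but all 7 had differences above 0, with a median of 1.77. The largest sum outside the macrophage markers was that of the 9 fibroblast markers, most of it Dcn. It overlapped between groups (289097.8 to 449896.4 in KO, 202240.0 to 337803.3 in WT). Of these 9, 8 had differences above 0, with a median of 0.23. At an unadjusted p under 0.05, 3 were higher in KO, and 0 passed the adjusted threshold. In a bulk sort, fewer cells of a type and less RNA per cell cannot be told apart. The part these other cells have in the values below was not tested.

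None of the 34 members passed the test between genotypes, which was limma with Benjamini-Hochberg adjustment over all 14905 genes at a threshold of 0.05, while 46 genes of the table did (0.309%). Log2 differences, KO minus WT on the scale of log2(normalized count + 1), were above 0 for 17 members and below 0 for 17, with a median of 0.00 and a range of -0.72 to 1.69, and the median over all genes was 0.02. At an unadjusted p under 0.05 there were 5 members, Atf4, Ppp1r15a, Asns, Dnajb9 and Os9, all higher in KO; over all genes the share was 9.14% in either direction and 5.37% for higher in KO. For 2 members, Atf4 and Ppp1r15a, every KO library was above every WT library, where 1.55% of all genes had the KO range wholly above and 3.15% had the ranges apart in either direction. With limma-voom on the worked-out reads the count of members called was also 0, and the same 5 members had an unadjusted p under 0.05. The PERK branch held 3 of those 5.

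**Figure D1:**
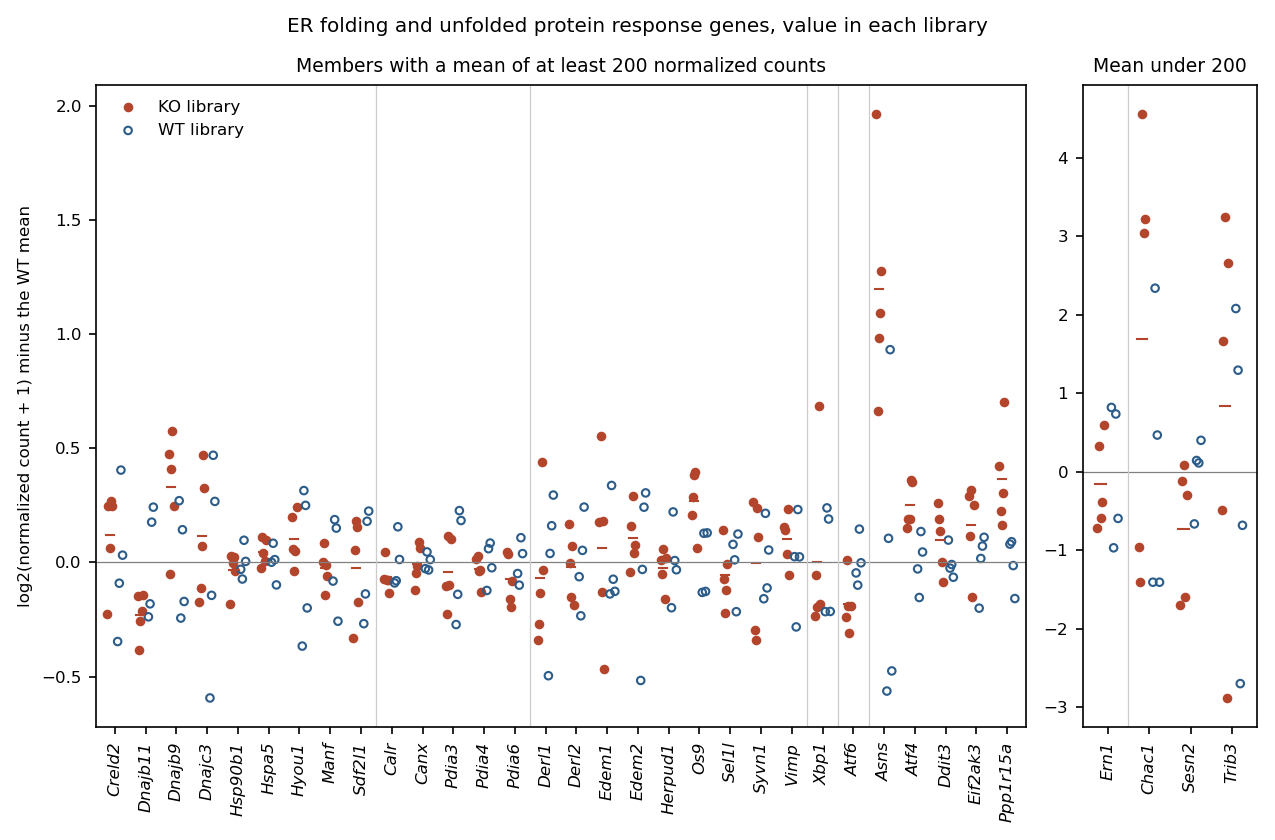
Log2(normalized count + 1) of each member in each library, minus the mean of the 4 WT libraries; filled points are KO, open points WT, short bars the KO mean, and grey lines separate chaperones, lectin chaperones and isomerases, degradation factors, and the IRE1, ATF6 and PERK branches. All KO points of Atf4 and Ppp1r15a lie above their WT points, those of Asns overlap with WT through 1 library on each side, and the points of Hspa5, Hsp90b1 and Canx are close together in both genotypes; the 4 members with a mean under 200 have their own panel and axis.

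In the sorted fraction, the transcripts of most members were above the median of all genes. No other cell type was compared. Per kilobase of exon, the median member was at 1637.8 normalized counts and the median of all genes at 137.9. Hspa5, the ER Hsp70 that also holds the sensors inactive, was the highest at 31937.6 per kilobase. The disulfide isomerase Pdia3 (21065.2), the lectin chaperone Calr (19795.0), the ER Hsp90 Hsp90b1 (15270.7), the membrane lectin chaperone Canx (12487.5) and the isomerase Pdia6 (12371.9) followed. Of the 32 pairs of neighbours in this order of 33 members, 26 had library ranges that overlapped, so their order is not resolved; the 6 breaks came after Hspa5, Calr, Hsp90b1, Pdia6, Syvn1 and Eif2ak3. Ddit3 has no length here because the annotation holds overlapping records of that name.

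Sensors and their low effectors were at the other end of the order. Per kilobase, Atf6 was at 540.6, the PERK gene Eif2ak3 at 104.2 and the IRE1 gene Ern1 at 19.3, in the same range as Sesn2 (31.7), Trib3 (20.5) and Chac1 (17.1). The PERK branch also had high members, with the eIF2alpha phosphatase subunit Ppp1r15a at 6901.8 and Atf4 at 4524.2 per kilobase. Members of this branch were thus found from the eighth place of the order to the last.

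**Figure D2:**
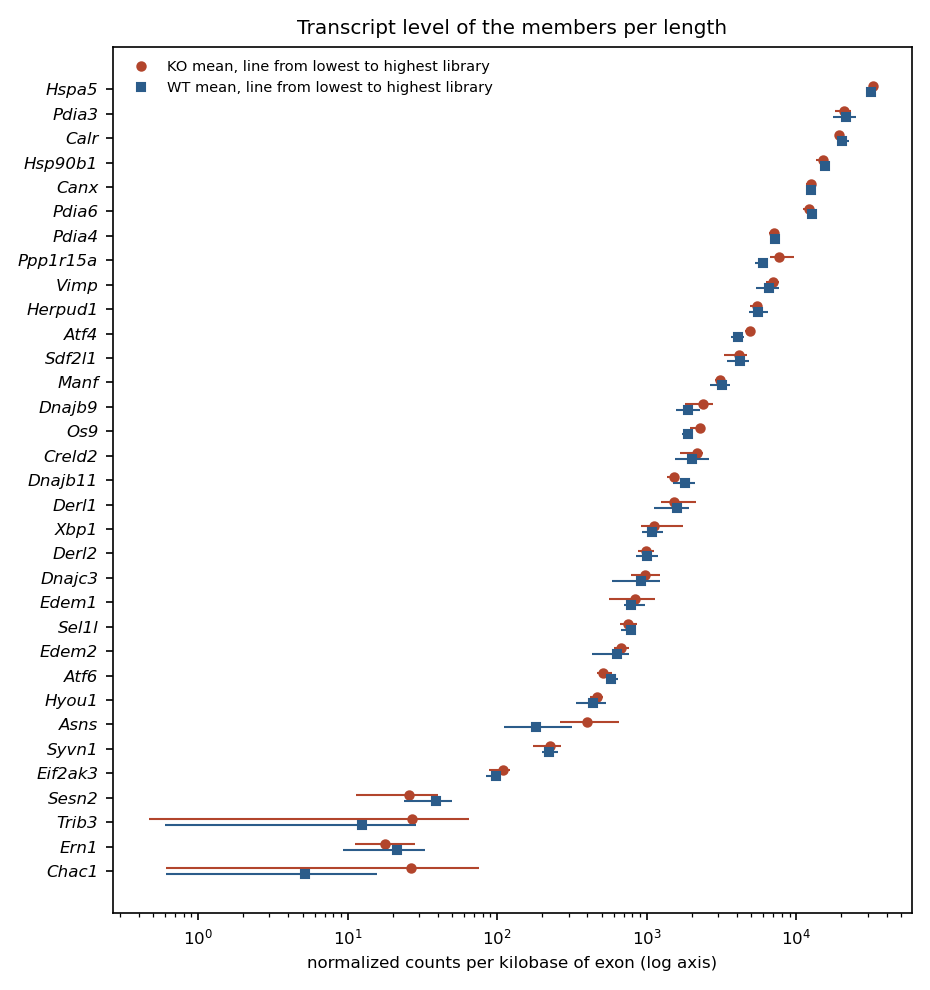
Normalized counts per kilobase of exon (log axis) of the 33 members with a length, as the mean of the KO libraries (circles) and of the WT libraries (squares), with lines from the lowest to the highest library. Hspa5 is at the top and Chac1 at the bottom, and the lines are longest for Trib3 and Chac1.

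Among the lumenal chaperones and co-chaperones, 5 of 9 had differences above 0 and 4 below, with a median of 0.05, and 0 of 9 had ranges apart. In order of replicate, Hspa5 had 130250, 143148, 136355, 133058 and 141856 normalized counts in KO and 132711, 140579, 133755 and 123866 in WT. WT replicate 4 was the lowest and KO replicate 2 the highest, and the other libraries of both groups were mixed between them. The means were 136933.4 ± 5542.4 (SD, n = 5) in KO and 132727.8 ± 6861.2 (SD, n = 4) in WT, and the log2 difference was 0.05 with a 95% interval of -0.08 to 0.18 (limma, adjusted p = 0.848). That interval leaves room for a KO to WT ratio between 0.943 and 1.13.

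Hsp90b1, which folds integrins and Toll-like receptors, had 60925.8 ± 3575.0 normalized counts in KO (n = 5) and 62379.0 ± 3158.7 in WT (n = 4), a log2 difference of -0.03. Hyou1, the large Hsp70 that exchanges nucleotide for BiP, had 3351.1 ± 266.9 and 3175.8 ± 720.8, a log2 difference of 0.10. The secreted stress factors Manf and Creld2 were at -0.03 and 0.12 on the log2 scale. Sdf2l1, a BiP cofactor, was at -0.02, and Dnajc3, a BiP co-chaperone also known as an inhibitor of eIF2alpha kinases, at 0.12. Within the deeper libraries these 2 were at 0.22 and 0.43, and within the shallower ones at -0.38 and -0.04.

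The ER J-domain proteins Dnajb9 and Dnajb11, which hand substrates to BiP, lay at the opposite ends of the chaperones. Dnajb9, a target of XBP1 that also keeps IRE1 inactive, had 6595.9, 4579.5, 6309.0, 7081.5 and 5640.3 normalized counts in KO and 5730.3, 4011.8, 5246.5 and 4219.1 in WT. KO replicates 1, 3 and 4 were above every WT library and KO replicates 2 and 5 were among the WT libraries. The fitted difference was 0.33 log2 units with SE 0.14 (limma, Benjamini-Hochberg adjusted p = 0.498). It was 0.34 within the deeper libraries and 0.26 within the shallower ones.

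Dnajb11 had 5171.1, 4396.7, 4801.6, 4948.7 and 5199.8 normalized counts in KO and 4861.1, 5056.9, 6481.3 and 6783.5 in WT. The high values were those of WT replicates 3 and 4, both of the shallower class, and the other WT libraries were among the KO libraries. The log2 difference was -0.23 with a 95% interval of -0.49 to 0.03 (limma, adjusted p = 0.606). It was -0.04 within the deeper libraries and -0.35 within the shallower ones.

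The lectin chaperones and disulfide isomerases had small differences between the group means. All 5 lay between -0.07 and 0.00, with 0 above 0, and none had ranges apart. Canx, the membrane-bound lectin that holds N-glycosylated proteins, had 58546.8 ± 3434.9 normalized counts in KO (n = 5) and 58675.5 ± 1509.7 in WT (n = 4), with a log2 difference of 0.00 and a 95% interval of -0.14 to 0.13. Calr, its soluble partner and a store of ER calcium, had 55859.5 ± 2567.7 and 58447.2 ± 4727.5, a difference of -0.06. The isomerases that form and reshuffle disulfide bonds were at -0.04 (Pdia3), -0.03 (Pdia4) and -0.07 (Pdia6).

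Of the ER-associated degradation factors, 4 of 9 were above 0 and 5 below, with a median of 0.00. Os9, a lectin that carries misfolded glycoproteins to the SEL1L-HRD1 ligase, had 5692.3, 6007.8, 6424.0, 6475.2 and 5142.6 normalized counts in KO and 4494.5, 5378.8, 4507.7 and 5385.3 in WT. KO replicates 1 to 4 were above every WT library and KO replicate 5 was below WT replicates 2 and 4. The means were 5948.4 ± 552.8 (SD, n = 5) and 4941.6 ± 508.7 (SD, n = 4), and the log2 difference was 0.27 with SE 0.11 (limma, Benjamini-Hochberg adjusted p = 0.473). It was 0.32 within the deeper libraries and 0.06 within the shallower ones.

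The ligase itself and its adaptor were close to 0, with Syvn1 (HRD1) at 0.00 and Sel1l at -0.06 on the log2 scale. Herpud1, a membrane scaffold of the ligase that is among the strongest targets of the response, had 12660.1 ± 736.3 normalized counts in KO (n = 5) and 12923.3 ± 1564.8 in WT (n = 4), a difference of -0.02. The mannosidase-like Edem1 and Edem2, which mark glycoproteins for removal, were at 0.06 and 0.11. Within the deeper libraries they were at 0.10 and 0.39, and within the shallower ones at -0.37 and -0.20. The derlins of the retrotranslocation channel were at -0.07 (Derl1) and -0.02 (Derl2). Vimp, the selenoprotein that ties the channel to p97 and is now named Selenos, was at 0.10. Derl1, Derl2 and Vimp were at 0.15, 0.17 and 0.27 within the deeper libraries. Within the shallower ones they were at -0.26, -0.33 and -0.18. Signs also differed between the depth classes for Herpud1 (-0.05 deeper, 0.03 shallower), Sel1l (-0.11, 0.04) and Syvn1 (-0.06, 0.14).

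For the IRE1 branch, the sensor was too low for a narrow estimate and its substrate did not separate the groups. Ern1 had 91.3, 189.7, 100.2, 115.5 and 229.1 normalized counts in KO and 266.9, 76.6, 251.8 and 99.6 in WT, so both groups ran from near 80 or 90 to well over 200. Its log2 difference was -0.15 with a 95% interval of -1.44 to 1.15. Xbp1 had 2976.2, 3367.1, 3060.0, 5637.1 and 3081.7 in KO and 3015.5, 4132.6, 3995.3 and 3017.3 in WT. KO replicate 4 stood far above the other 8 libraries, and without it the difference of 0.00 became -0.17. The table gives 1 value per gene, so spliced and unspliced Xbp1 were not analysed here.

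Atf6 had 4520.7, 5376.2, 4670.2, 4306.7 and 4669.0 normalized counts in KO and 5165.4, 4977.6, 5900.6 and 5326.7 in WT. Of the KO libraries, 4 were below every WT library, and KO replicate 2 was above WT replicates 1, 2 and 4. The log2 difference was -0.18 with a 95% interval of -0.41 to 0.04 (limma, Benjamini-Hochberg adjusted p = 0.638). It was -0.11 within the deeper and -0.26 within the shallower libraries.

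The PERK branch had the widest range of differences among the 6 roles, from -0.72 to 1.69, with a median of 0.31. Both ends of that range, Sesn2 and Chac1, were low members with 95% intervals that spanned 0. Differences were above 0 for 7 of 8, beside 52.4% of all genes, and the 7 include the low members Chac1 and Trib3. Of the members of the branch, 3 had an unadjusted p under 0.05, all higher in KO. Ranges were apart for 2, and 0 passed the adjusted threshold. The sum of its 8 members was 35458.7 to 45108.1 normalized counts in KO and 29217.9 to 32083.7 in WT, and most of that sum was Ppp1r15a and Atf4. Eif2ak3, the sensor, had 716.7, 634.1, 730.3, 527.2 and 697.6 in KO and 509.1, 592.2, 614.9 and 631.6 in WT. KO replicate 4 was among the lowest and the other 4 KO libraries were the highest of the 9, with a log2 difference of 0.17 and a 95% interval of -0.37 to 0.71.

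Atf4, on chr15:80255184-80257541 (GRCm38, + strand), encodes the transcription factor whose translation follows eIF2alpha phosphorylation. It had 10705.8, 10996.3, 11006.3, 12382.9 and 12297.6 normalized counts in KO and 9444.2, 8658.2, 10579.0 and 9941.3 in WT. Every KO library was above every WT library, though KO replicate 1 and WT replicate 3 were close. The means were 11477.8 ± 797.1 (SD, n = 5) and 9655.7 ± 811.1 (SD, n = 4), a fold of 1.19 with a 95% interval of 1.04 to 1.36. The log2 difference was 0.25 with SE 0.09 (limma, Benjamini-Hochberg adjusted p = 0.35). Within the deeper libraries it was 0.32 and within the shallower ones 0.26.

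Ppp1r15a, on chr7:45522916-45526268 (GRCm38, - strand), encodes GADD34, which brings the phosphatase that removes the phosphate from eIF2alpha and so closes the loop. It had 23261.0, 20337.4, 19474.2, 21466.9 and 28244.6 normalized counts in KO and 18368.4, 18503.5, 17209.6 and 15570.8 in WT. The ranges did not overlap, and the farthest apart were KO replicate 5 and WT replicate 4, both of the shallower class. The means were 22556.8 ± 3480.8 (SD, n = 5) and 17413.1 ± 1358.6 (SD, n = 4), a fold of 1.29 with a 95% interval of 1.1 to 1.5. This was a log2 difference of 0.36 with SE 0.10 (limma, Benjamini-Hochberg adjusted p = 0.196). It was 0.19 within the deeper libraries, where the unadjusted p was no longer under 0.05, and 0.79 within the shallower ones.

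Asns, on chr6:7675169-7693254 (GRCm38, - strand), encodes asparagine synthetase and holds the C/EBP-ATF element printed above. It had 1767.6, 715.4, 893.8, 964.5 and 1094.7 normalized counts in KO and 305.3, 486.1, 862.8 and 324.6 in WT. The groups overlapped through 1 library on each side, since KO replicate 2 was below WT replicate 3, and the other 4 KO libraries were above every WT library. The means were 1087.2 ± 404.3 (SD, n = 5) and 494.7 ± 258.4 (SD, n = 4), a fold of 2.29 with a 95% interval of 1.37 to 3.82. On the log2 scale this was 1.20 with SE 0.35 (limma, Benjamini-Hochberg adjusted p = 0.210). Within the deeper libraries it was 1.40 and within the shallower ones 1.05.

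Ddit3, which encodes the stress factor CHOP, had 3216.6, 3062.3, 2953.2, 2686.4 and 2526.7 normalized counts in KO and 2873.9, 2639.1, 2668.2 and 2567.2 in WT. The groups overlapped, with KO replicate 5 the lowest of the 9 libraries and KO replicate 1 the highest. The log2 difference was 0.10 with a 95% interval of -0.17 to 0.37 (limma, adjusted p = 0.843).

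The remaining members of the branch, Trib3, Chac1 and Sesn2, were low and had wide intervals. Trib3, a pseudokinase that feeds back on ATF4, had 9.48, 45.7, 138.0, 1.0 and 91.6 normalized counts in KO and 61.2, 35.1, 1.27 and 8.18 in WT. Chac1, a glutathione-degrading enzyme, had 1.72, 1.0, 124.0, 42.6 and 48.4 in KO and 1.0, 25.8, 6.33 and 1.0 in WT. Both genes ran from values at or near the floor of 1 upward in each group, and the 95% intervals of their log2 differences were -2.09 to 3.77 for Trib3 and -1.34 to 4.72 for Chac1. The sign of Trib3 differed between the depth classes, with -1.30 within the deeper and 4.34 within the shallower libraries, and Chac1 was at 0.84 and 3.69. Sesn2, which encodes a leucine sensor, had 39.6 to 138.8 in KO and 82.3 to 173.2 in WT, with a log2 difference of -0.72 and an interval of -2.13 to 0.69.

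**Figure D3:**
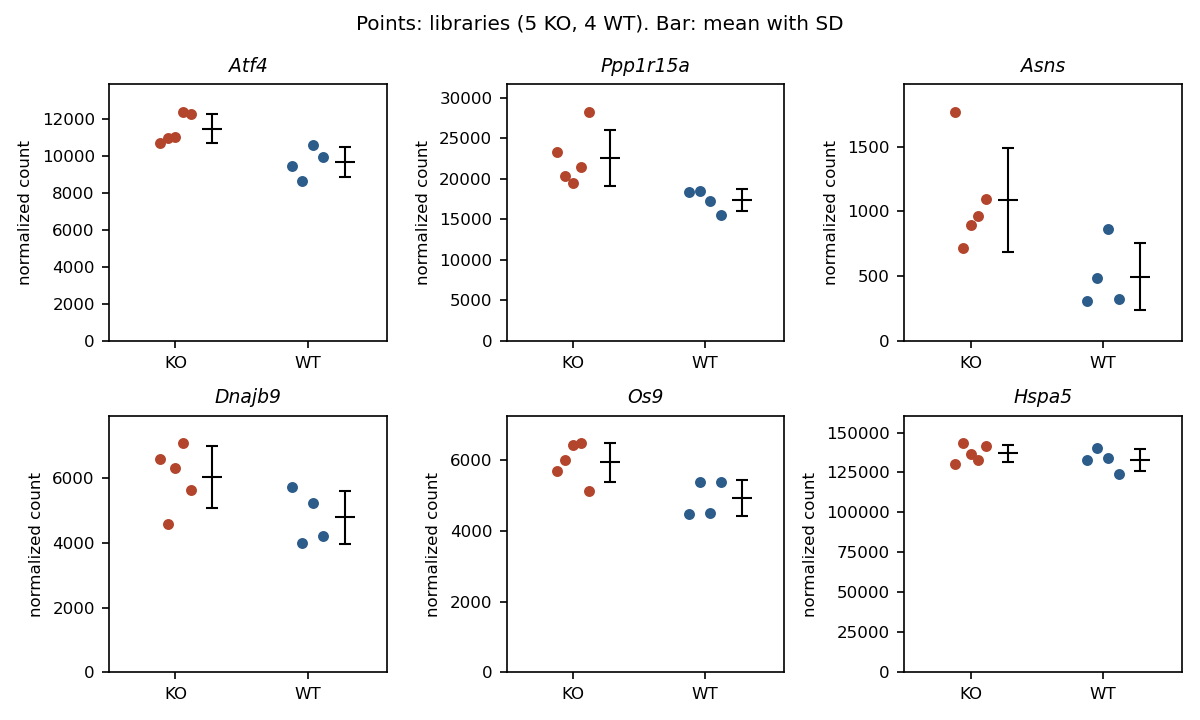
Normalized counts (axes from 0) of 6 members in each library, with the mean and SD of each group beside the points. The KO points of Atf4 and Ppp1r15a lie wholly above the WT points, those of Asns, Dnajb9 and Os9 overlap with WT, and those of Hspa5 share one range with WT.

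**Figure D4:**
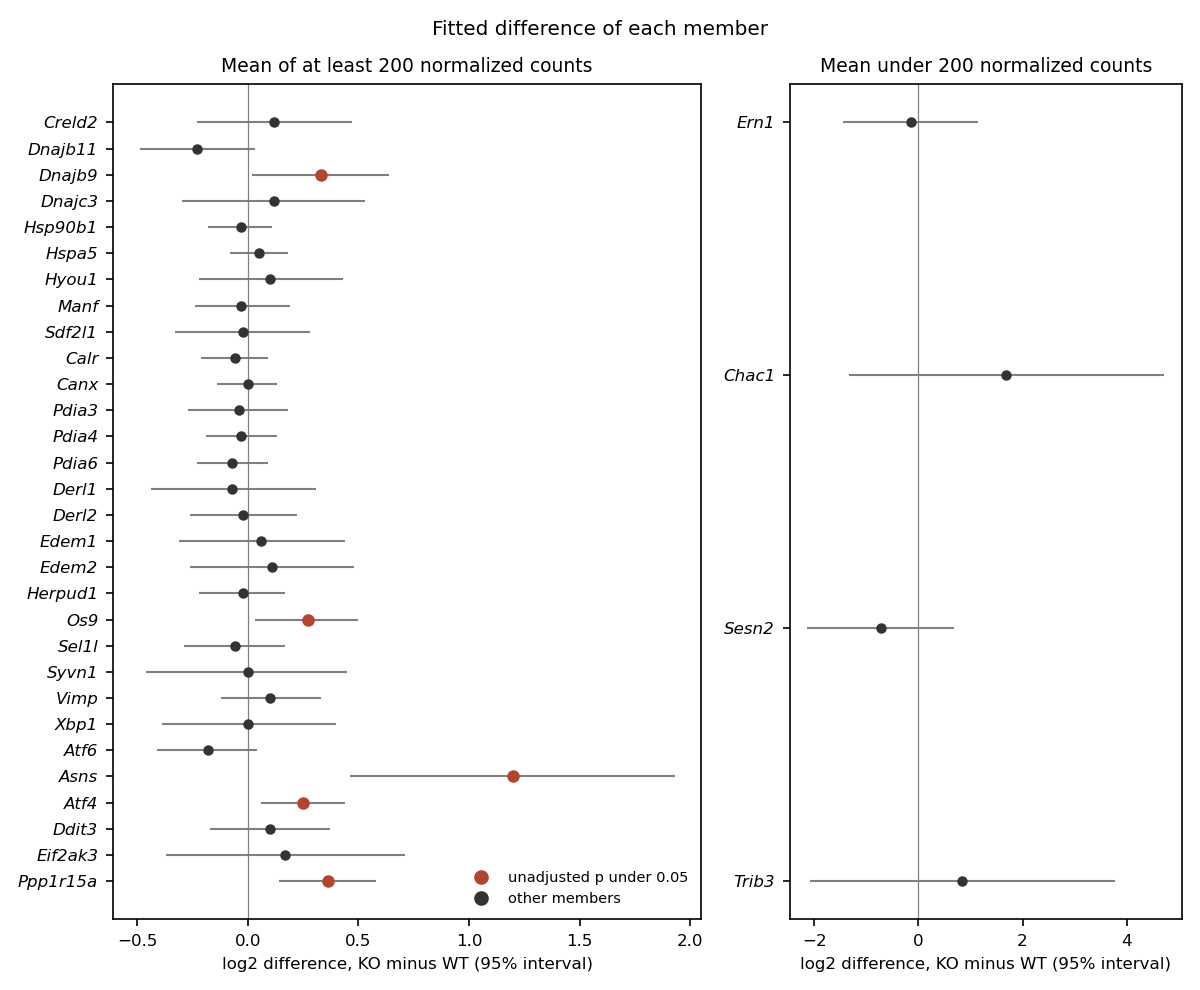
Log2 difference, KO minus WT, of each member with its 95% interval from limma; red points have an unadjusted p under 0.05, and the 4 members with a mean under 200 have a wider axis. Most intervals of the chaperones and isomerases stay within 0.5 of 0, and the intervals of Ern1, Chac1, Sesn2 and Trib3 span several log2 units.

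The precision differed between members and set what could be seen. Among the 28 members whose mean reached 1000 normalized counts, the median half-width of the 95% interval was 0.23 on the log2 scale, and for 24 of the 28 the whole interval lay within 0.5 of 0 (1.41-fold). The median size of the difference, without its sign, was 0.06 in these members and 0.14 in the 6257 genes whose mean reached 1000. The median coefficient of variation of these members between libraries was 9.07% in KO and 13% in WT, beside 14.8% and 15.1% in those genes. The 6257 genes share only the cutoff with these members and were not matched to them in level. As a share of all values of a library, the 34 members made up 0.880% ± 0.024 in KO (n = 5, 0.844% to 0.912%) and 0.83% ± 0.035 in WT (n = 4, 0.798% to 0.880%), so the shares overlapped. The totals behind these shares did not overlap, with 65109031.4 to 67031402.4 over all genes in KO and 68500062.9 to 70902637.4 in WT. The summed members alone were at 565805.0 to 593785.4 in KO and 546630.2 to 612338.3 in WT.

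Genes induced by tissue dissociation, such as Fos and Jun, also had mostly positive differences and are given beside the PERK branch. Of 22 such genes, 20 had differences above 0 and 15 had an unadjusted p under 0.05, all higher in KO; 0 passed the adjusted threshold, 4 had the KO range above WT, and the median was 0.34. Their sum was 496862.3 to 644168.9 normalized counts in KO and 430158.6 to 493136.0 in WT. Relative to the mean of each gene over all libraries, the median of the PERK branch on the log2 scale was 0.11, 0.04, 0.27, 0.02 and 0.36 in KO replicates 1 to 5 and -0.21, -0.08, -0.04 and -0.24 in WT replicates 1 to 4. The median of the dissociation genes was 0.04, -0.03, 0.10, 0.04 and 0.45 in KO and 0.01, -0.17, -0.22 and -0.35 in WT. Both were highest in KO replicate 5 and lowest in WT replicate 4, and the libraries between those did not keep the same order: WT replicate 1 was low for the PERK branch and not for the dissociation genes. Without KO replicate 5, Atf4 had a log2 difference of 0.22, Ppp1r15a 0.28 and Asns 1.18. The part of handling in these values was not tested.

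Genes of the same pathways outside the 34 are given from 8 lists. Among 35 other ER folding enzymes and chaperones, 1 passed the adjusted threshold, 2 had an unadjusted p under 0.05 and a higher value in KO and 1 a lower value, and the median was 0.05. The gene that passed was Hspa13, a microsomal Hsp70-like ATPase, which had 4146.9, 5075.7, 4560.9, 4657.9 and 4579.9 normalized counts in KO and 2798.0, 2600.4, 2592.3 and 3097.8 in WT. Every KO library was above every WT library, by a margin wider than the spread in either group. Hspa13 rose by 0.73 on the log2 scale with SE 0.12 (limma with Benjamini-Hochberg adjustment, adjusted p = 0.011), with 0.77 within the deeper and 0.69 within the shallower libraries. It passed under 12 of 20 other settings, with adjusted p from 0.010 to 0.310, and did not pass without KO replicate 2, 3, 4 or 5, without WT replicate 2 or 3, in the 6 deeper libraries or with a replicate block. Its log2 difference stayed between 0.70 and 0.79 throughout.

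Prkcsh, the beta subunit of the glucosidase II that feeds glycoproteins to Canx and Calr, had 1571.3 ± 238.9 normalized counts in KO (n = 5) and 2256.4 ± 288.9 in WT (n = 4). Its KO range was below the WT range, with a log2 difference of -0.53 and a limma adjusted p of 0.269. Fkbp7, an ER prolyl isomerase, was at 0.64 (adjusted p = 0.312), with 0.14 within the deeper and 1.33 within the shallower libraries. Neither passed the adjusted threshold.

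The other 30 degradation genes had a median of 0.00 and 0 genes at an unadjusted p under 0.05. Those with the smallest p were Svip (1.52), Ngly1 (-0.31) and Foxred2 (0.68). Svip was at 2.04 within the deeper and -0.09 within the shallower libraries. The 10 genes of the other eIF2alpha kinases, the phosphatase and eIF2B had a median of 0.07 and also 0 at that threshold. They were led by Eif2ak2 (-0.30), Eif2b2 (-0.15) and Eif2ak4 (-0.46). Eif2ak4 was at -1.20 within the deeper and 0.69 within the shallower libraries. The 25 genes of the translocon, signal peptidase and N-glycosylation ran only from -0.15 to 0.24 with a median of 0.03 and again 0, led by Ssr1 (0.11), Sec61a1 (0.14) and Sec61b (-0.13).

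Of 41 other targets of ATF4 and CHOP, 40 were in the table and 0 passed the adjusted threshold, with 4 higher and 1 lower at an unadjusted p under 0.05 and a median of 0.08. Nupr1, a stress-induced chromatin protein, had 13732.1 ± 1687.4 normalized counts in KO (n = 5) and 10347.7 ± 948.2 in WT (n = 4), with the KO range above WT, a log2 difference of 0.40 and a limma adjusted p of 0.134. Cars, a cysteinyl-tRNA synthetase, had 1627.6 ± 209.8 and 1046.4 ± 250.4, also with the KO range above, a difference of 0.66 and a limma adjusted p of 0.25. Phgdh, the first enzyme of serine synthesis, had 113.5 to 475.6 in KO and 12.9 to 232.8 in WT, a log2 difference of 2.46 and a limma adjusted p of 0.264. The other targets were spread on both sides of 0, from -1.54 upward.

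Among 9 measured IRE1 partners and substrates the median was 0.09 with 0 at an unadjusted p under 0.05. The genes with the smallest p were Traf2 (0.31), Sparc (0.28) and Map3k5 (0.34). Sparc was at -0.06 within the deeper and 0.95 within the shallower libraries. The 13 relatives and proteases of ATF6 had a median of 0.12, with 1 gene lower at that threshold. That gene was Nfyb, a subunit of the NF-Y factor that binds CCAAT, with 1869.4 ± 232.9 normalized counts in KO (n = 5) and 2625.0 ± 270.3 in WT (n = 4), the KO range below WT, a log2 difference of -0.49 and a limma adjusted p of 0.229. Mbtps1, the Golgi protease that cuts ATF6 first, was at 0.32, and Creb3l2 at 0.49. Creb3l2 was at 0.69 within the deeper and -0.43 within the shallower libraries. On the list of UFMylation and ER-phagy (14 genes, median 0.07), 1 gene was higher at that threshold, the UFM1 protease Ufsp2, at 5246.7 ± 285.0 in KO and 4375.9 ± 269.9 in WT with ranges apart (log2 0.26, limma adjusted p = 0.419), followed by Cdk5rap3 (0.21) and Ddrgk1 (0.18).

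**Figure D5:**
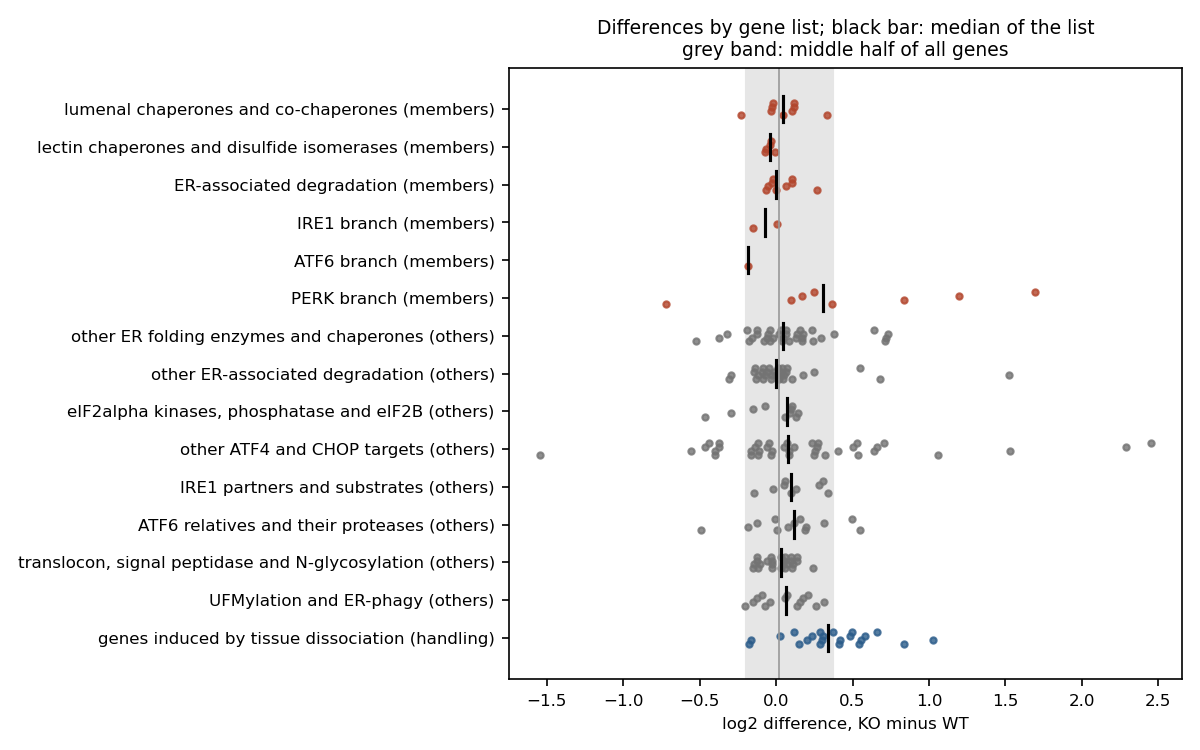
Log2 difference, KO minus WT, of every measured gene of each list, with the median of the list as a black bar; red points are the 34 members by role, grey points the other pathway genes and blue points the dissociation genes, and the grey band holds the middle 50% of all genes. The PERK branch has a median of 0.31 and the dissociation genes 0.34, while the other lists have medians between -0.18 and 0.12.

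Exon bases of 10 of the 33 positioned members are shared with another annotated gene. The largest share with a single gene is 10.3% (Hsp90b1 with the pseudogene 1810014B01Rik on the opposite strand). The libraries were made strand-specific, but whether counting used the strand was not stated. The opposite-strand part of Hsp90b1 and that of Eif2ak3 (8.0%, with Gm43292) is therefore uncertain. On the same strand, where strand cannot separate genes, Hsp90b1 shares 3.3% with Gm25745 and 2.1% with Gm15344. Other same-strand shares are 0.6% (Pdia4 with Mir704) and 0.4% (Manf with Rbm15b). Atf4 and Asns share none, and Ppp1r15a shares 0.4% with Tulp2.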

How the data were processed

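The 9 messenger RNA libraries (5 KO, 4 WT) were sequenced. The authors deposited 1 table of normalized, filtered values, used here as a signal per gene and library with a floor of 1. Per the submitters' processing notes, the build was mm10 and the tools were HISAT, Partek, DESeq2 and CASAVA 1.8.2, without the role of each. The gene annotation and the counting rule were not given in the sources used here. Up to a value of 300, 100.0% of the values above the floor were whole multiples of the step of their library within a tolerance of 0.1 step, which gave the depths printed. Between 6.3% and 9.9% of genes per library were at the floor.

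The main fit was limma 3.58.1 in R 4.3.3 with a mean-variance trend on log2(value + 1), no term besides genotype, and adjustment over all 14905 genes by Benjamini-Hochberg; fold changes on this scale understate the change of low genes. Asking for 4 or more libraries with a value of 1 or above removed 0 genes, as the floor of 1 fixed in advance. The fit without this filter therefore repeats the main fit, and it is counted among the alternative settings wherever these are totalled. The fit was tested on simulated data. The changes planted there were larger than those of Atf4, Ppp1r15a, Dnajb9 and Os9, so it does not bear on changes of that size. Every member is reported; of each other list, the 3 genes with the smallest p and a mean of at least 100, and every gene past the threshold, are named. Levels per kilobase use the union of exons in GENCODE M21, matched by symbol for 33 of 34 members. Python 3.11.15 was used for tables, motif searches and plots. The members and lists were chosen with earlier results of these data known. Alternatives were other pseudocounts, filters, scalings, weights, terms, library subsets and limma-voom on the worked-out reads.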

Additional observations from a re-analysis of the deposited data

Results flagged for a closer look

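In each group the highest and the lowest library of every member were set against the others by Dixon's ratio, which by chance picks out about 1 in 20 groups. Of 68 groups of values checked, 2 stood out. Xbp1 was at 5637.1 normalized counts in KO replicate 4, against 2976.2 to 3367.1 in the other KO libraries. Edem1 was at 6314.2 in WT replicate 2, against 4542.0 to 4749.3 in the other WT libraries.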

How the results depend on the processing

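The count of 0 members past the adjusted threshold held in all 20 alternative settings, among them the fit without a filter, which repeats the main fit. Atf4 and Asns had an unadjusted p under 0.05 in 20 of 20 settings, Ppp1r15a in 19, Os9 in 15 and Dnajb9 in 12, and their log2 differences were always above 0 (Atf4 0.20 to 0.32, Ppp1r15a 0.19 to 0.44, Asns 1.0 to 1.51). The 5 members at an unadjusted p under 0.05 became 3 with the depth class as a term, and 3 to 6 when 1 library was left out, with 3 without KO replicate 3 and without KO replicate 4. In some settings other members came under that threshold. Dnajb11, lower in KO, did so without WT replicate 1 and without WT replicate 2. Atf6, lower in KO, did so without KO replicate 2, and Vimp, higher in KO, in the 6 deeper libraries. The median over members, 0.00, became 0.095 in the 6 deeper libraries and ran from -0.035 to 0.059 when 1 library was left out. The 46 genes called over the whole table became 0 with a replicate block, which drops KO replicate 5, and 0 in the 6 deeper libraries (1104 and 1039 at an unadjusted p under 0.05), and 5 to 38 when 1 library was left out, where leaving out any library but WT replicate 1 gave 19 or fewer. They split into 27 higher and 19 lower, and into 12 and 20 with limma-voom. Same-numbered KO and WT libraries did not deviate together (correlations -0.021 to 0.017), so the numbers were not taken as pairs; the replicate block left the median over members at 0.027 and the same 5 members at an unadjusted p under 0.05. The sign of the difference changed in 65 of 678 member-by-setting values, in 20 members, none of them with an unadjusted p under 0.05. The cause of these shifts was not tested. Count-model tests on reads were planned and not run, because the floor of 1 keeps the table from being exact reads.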
